A study of Canis lupus familiaris with 15 samples.

Results

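The genes described are 42 genes of the complement, coagulation and plasminogen systems, followed in canine osteosarcoma cells that had left the blood vessels of zebrafish embryos and in the parental lines they came from. The set was chosen by measured values: C4BPA, FGG and C7 were picked from the largest D17 differences, and the other members were named by pathway. A member enters the description where its symbol has a row in at least 1 of the 3 deposited tables, which list 7699 distinct gene symbols in all. This held for 19 of the 42 members, with 17 listed in the D17 comparison, 8 in the HMPOS comparison and 9 in the comparison of HMPOS with POS. The other 23 members have no row in these tables and are named below without a value.

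RNA was sequenced from 15 libraries in 5 groups of 3: extravasation-positive D17, parental D17, extravasation-positive HMPOS, parental HMPOS and parental POS. D17 is a metastatic canine osteosarcoma line, and HMPOS is a highly metastatic subline of the canine osteosarcoma line POS. Extravasated cells had been placed in the bloodstream of Tg(fli1a:EGFP) embryos, whose vessels fluoresce, had moved out of the vessels as clusters, and were then dissociated and grown in culture into sublines before RNA was taken, so they are expanded sublines rather than cells fresh from tissue. Parental D17 and HMPOS cells were grown in vitro and never entered a fish, so passage through the embryo, isolation and outgrowth differ between the groups together with extravasation and cannot be told apart from it. All groups were dog tumour lines with no further treatment named in the sample records. Each table gives 1 FPKM value per group (fragments scaled by transcript length and by library size), made from its 3 libraries together. The spread between libraries and the depth are therefore unknown here, no SD or test is given, and every difference below is a description of pooled values. The tables hold genes that the authors' program marked as significant, so a missing row gives no level and does not mean that a gene was equal between groups.

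Complement is a cascade of blood proteases and binding proteins that marks and lyses targets. It starts from the C1 complex, from lectins or from spontaneous turnover of C3, and ends in a pore built from C5 to C9, with inhibitors that spare host cells. Coagulation runs from tissue factor through a chain of proteases to thrombin, which cuts fibrinogen into fibrin, and the plasminogen activators start the reverse process by turning plasminogen into the fibrin-cutting protease plasmin. The liver makes most of these proteins for plasma, while tumour and stromal cells can make some of them locally, and tissue factor and urokinase have long been studied in tumour cell spread.

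The direction of each comparison rests on the names of the groups in the tables. Values are labelled as norm or meta, and norm was read as parental because POS, which has parental libraries alone, carries that name. The parental HMPOS group appears in the HMPOS table and in the table against POS, and its pair of values can be set side by side. Over 907 genes listed in both, the median ratio of these values was 0.999, with extremes of 0.998 and 1.00, whereas the same column set against extravasated HMPOS gave a median ratio of 0.660. The group named norm in the HMPOS table is thus the HMPOS group of the other table, and for the 7 members in both tables the values differed by at most 0.138%. For D17, whose groups appear in 1 table alone, the tables allow no such check. The values also cannot show whether names were exchanged before the tables were made. The sources used here do not all give the same direction for extravasated against parental cells, a specific doubt for both lines that was not settled here, and the names were followed. Every direction below for extravasated cells is therefore conditional on the names, and would turn round for a line whose names were exchanged. For HMPOS, an exchange would also put extravasated cells in place of parental HMPOS in the comparison with POS.

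By the group names of the table, all 17 listed members were higher in extravasated than in parental D17 cells. Of the 4412 genes in the D17 table, 2390 were higher in extravasated cells, or 54.2%, and with the names exchanged the higher genes would be the other 2022. Past 2-fold, 13 members were higher and 0 were lower, beside shares of 18.3% and 8.50% of all listed genes in these directions. On the log2 scale, extravasated over parental, the median was 2.15 for the members and 0.39 for all listed genes. The choice of the set used this contrast, so these counts describe it and support nothing further. Fewer expressing cells and less RNA per cell cannot be told apart in such bulk samples.

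**Figure D1:**
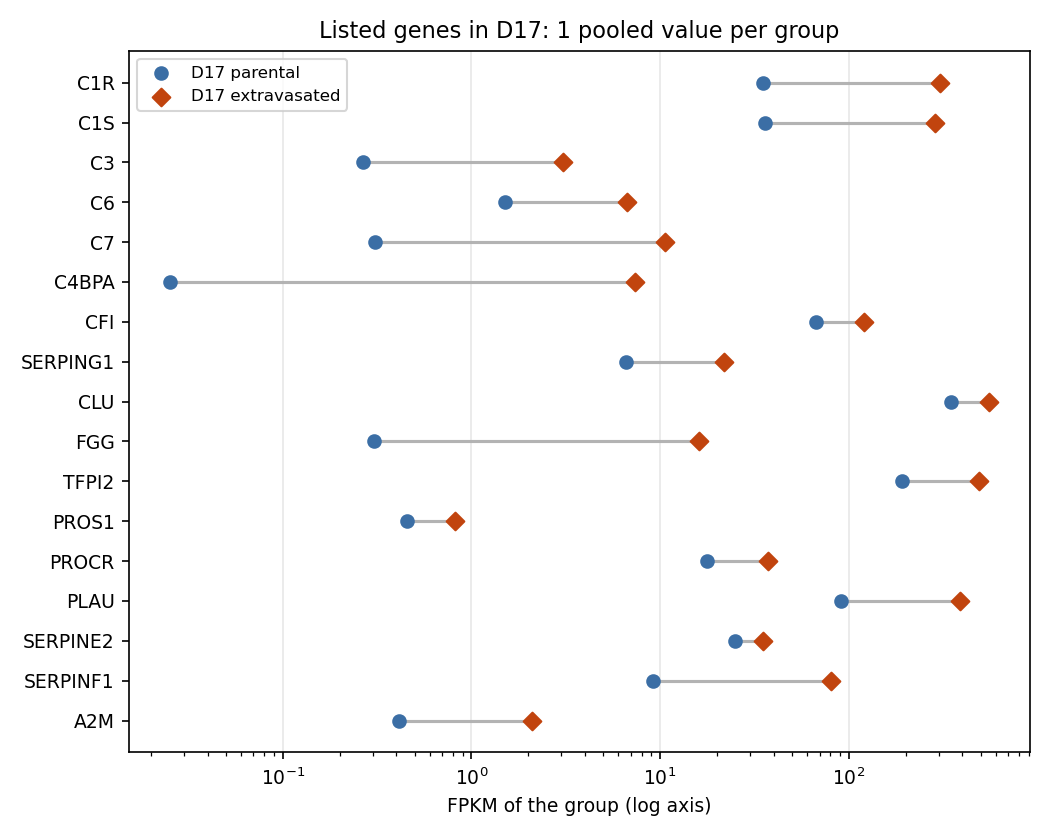
FPKM of the 17 listed complement, coagulation and plasminogen genes in parental D17 cells (circles) and extravasated D17 cells (diamonds), on a log axis, with genes grouped by role from complement initiation at the top to protease inhibitors at the bottom. Each point is 1 pooled value for 3 libraries, and the extravasated value lies to the right for each gene, with the widest gap for C4BPA.

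The C1 complex consists of the recognition protein C1q and of the proteases C1r, which activates itself, and C1s, which C1r cleaves and which then cuts C4 and C2. C1R (ENSCAFG00000014220, chromosome 27, 37951310 to 37960918) was at 35.0 FPKM in parental and 306 FPKM in extravasated D17 cells, 8.74-fold higher. C1S (ENSCAFG00000014346, chromosome 27, 37976131 to 37985995) was at 36.0 and 286 FPKM, 7.95-fold higher. These positions are those of the tables, whose genome build is CanFam3.1 by the submitters' processing notes, and the sources used here do not say whether starts count from 0 or from 1. The genes were close to each other in level as well as in ratio: C1R over C1S, in FPKM, was 0.971 in parental and 1.07 in extravasated D17 cells. The pair is 15.2 kb apart, and C1RL, which codes for a related protease and lies 1.64 kb from C1R on its other side, was at 6.57 FPKM in parental and 19.2 FPKM in extravasated D17 cells. C2 and MASP1, which also act in initiation, and C1QTNF1, which codes for a secreted protein related to C1q, have no row in any of the tables, and neither do the C1q chain genes C1QA, C1QB and C1QC.

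C3, the central component whose cleavage opens the amplification step, was at 0.266 FPKM in parental and 3.07 FPKM in extravasated D17 cells, 11.6-fold higher, with both values low beside those of C1R and C1S. CFB, which supplies the protease of the alternative pathway, has no row. Among the terminal components, which assemble into the lytic pore, C7 (ENSCAFG00000018608, chromosome 4, 68450495 to 68502831) was at 0.308 FPKM in parental and 10.6 FPKM in extravasated D17 cells, 34.3-fold higher and at rank 4 of the 4404 ratios in that table, in which 8 further genes listed at 0 in a group have no ratio. C6, its neighbour 132 kb away, was at 1.51 and 6.67 FPKM, 4.43-fold higher. C5 has no row, so C6 and C7 are the terminal components of the set with a value.

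The complement inhibitors covered a wide range of ratios. C4BPA (ENSCAFG00000024982, chromosome 7, 6240896 to 6268659), which codes for the alpha chain of the C4b-binding protein, a cofactor that helps break down C4b, was at 0.0253 FPKM in parental and 7.34 FPKM in extravasated D17 cells. This 290-fold difference was the highest of the 4404 ratios, and it divides by a parental value close to 0. With the names exchanged it would be the lowest ratio, the value near 0 would be that of extravasated cells, and the ranks of C7 and FGG would likewise count from the lowest ratio. A pseudocount of 1 FPKM in both groups brought the log2 ratio of C4BPA to 3.02 in place of 8.18, that of FGG 3.71 in place of 5.73 and that of C7 3.15 in place of 5.10, so that C4BPA was then below both. C4BPB, the beta chain gene beside it, has no row. CFI, which codes for the protease that cuts C4b and C3b with such cofactors, was at 66.7 and 121 FPKM, 1.81-fold higher. SERPING1 (ENSCAFG00000007838), the C1 inhibitor that removes C1r and C1s from the complex, was at 6.57 and 21.9 FPKM, 3.32-fold higher. CLU, the secreted chaperone clusterin, which also binds terminal complexes, was at 346 and 552 FPKM and was the most abundant listed member in both D17 groups. The membrane-bound inhibitors CD46, CD55 and CD59, and VTN, have no row.

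Of the coagulation genes, FGG (ENSCAFG00000008440, chromosome 15, 52261219 to 52270169), which codes for the gamma chain of fibrinogen, was at 0.305 FPKM in parental and 16.1 FPKM in extravasated D17 cells, 52.9-fold higher and at rank 2. Fibrinogen is secreted as a complex of alpha, beta and gamma chains, and the alpha and beta chain genes, FGA and FGB, have no row in any of the tables, so FGG stands as the listed chain without its partners. In the RefSeq annotation of the dog assembly UU_Cfam_GSD_1.0, FGA lies next to FGG, and LOC119877046 lies between FGB and FGA. F13A1, which codes for the crosslinking enzyme subunit of factor XIII, has no row, nor do the factor genes F5, F8 and F10 or the thrombin and protease receptor genes F2R and F2RL1.

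The 3 listed anticoagulant genes differed widely in level. TFPI2, a Kunitz-type inhibitor of plasmin and of other serine proteases, was at 192 FPKM in parental and 488 FPKM in extravasated D17 cells, 2.55-fold higher. PROCR, the endothelial protein C receptor that presents protein C for activation, was at 17.7 and 37.3 FPKM, 2.11-fold higher and thus just past 2-fold. PROS1, which codes for protein S, the cofactor of activated protein C that also travels bound to C4b-binding protein, was at 0.457 and 0.818 FPKM, 1.79-fold higher and below 1 FPKM in both groups. TFPI, THBD and SERPIND1 have no row.

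In the plasminogen system, PLAU (ENSCAFG00000015190), which codes for urokinase, the activator bound at cell surfaces, was at 90.8 FPKM in parental and 387 FPKM in extravasated D17 cells, 4.27-fold higher. Its receptor gene PLAUR and the tissue-type activator gene PLAT have no row. Among the protease inhibitors and related serpins, SERPINF1 (ENSCAFG00000024189), the pigment epithelium-derived factor, a serpin without inhibitor activity that acts on vessels and is secreted in bone, was at 9.19 and 80.1 FPKM, 8.71-fold higher. A2M, the broad protease trap alpha-2-macroglobulin, was at 0.416 and 2.08 FPKM, 5.02-fold higher. SERPINE2, an inhibitor of thrombin and urokinase, was at 24.9 and 34.9 FPKM, 1.40-fold higher, the smallest ratio of the 17. With the names exchanged, the ratio of SERPINE2 would be 0.713 and the largest of the 17. SERPINB2 has no row.

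The order of levels in D17 was led by a few genes. FPKM is scaled to transcript length, so levels of different genes can be set beside each other. CLU, TFPI2, PLAU, C1R and C1S held 85.5% of the summed FPKM of the 17 members in extravasated cells, where the sum was 2361 FPKM against 828 FPKM in parental cells. In parental cells, CLU, TFPI2, PLAU, CFI and C1S held 88.3%. With the names exchanged, these shares and the sums, orders and counts given here would change places between the groups. In parental cells CFI was at order 4, above C1S and C1R, and in extravasated cells C1R was at order 4, above C1S and CFI. The members with the highest ratios were not the abundant ones, since FGG, C7 and C4BPA were at orders 11, 12 and 13 in extravasated cells. Of the 17 members, 16 were at 1 FPKM or more in extravasated cells and 11 in parental cells.

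By the same reading of the names, all 8 members listed for HMPOS were also higher in extravasated than in parental cells. Of the 1189 genes listed for this line, 67.0% were higher in extravasated cells, 20.5% were higher past 2-fold and 4.79% were lower past 2-fold. With the names exchanged, the higher genes would number 392 in place of 797. Among the members, 5 were higher past 2-fold and 0 were lower. The median log2 ratio was 1.18 for the members and 0.58 for all listed genes. Relative to these medians of all listed genes, the directions of all 17 members in D17 and all 8 members in HMPOS stayed as given, though SERPINE2 in HMPOS, at a log2 ratio of 0.59, then lay nearly at 0. Centred in this way, the members of HMPOS that were higher past 2-fold numbered 2 in place of 5, and the median log2 ratio of the 8 was 0.59 in place of 1.18.

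The same initiating proteases were listed in HMPOS with smaller ratios. C1R was at 16.0 FPKM in parental and 36.7 FPKM in extravasated HMPOS cells, 2.29-fold higher, and C1S was at 20.1 and 37.4 FPKM, 1.86-fold higher. SERPING1, their inhibitor, was at 1.46 and 6.50 FPKM, which at 4.44-fold was the highest ratio of the 8 members. With the names exchanged, the ratio of SERPING1 would be 0.225 and the lowest of the 8. SERPINF1 was at 92.4 and 207 FPKM, 2.24-fold higher, and was the most abundant of the 8 in both HMPOS groups. PROS1 was at 0.376 and 1.03 FPKM, 2.73-fold higher. PROCR, at 9.67 and 18.5 FPKM, lay just under 2-fold with a ratio of 1.91, and SERPINE2 was at 47.9 and 72.1 FPKM, 1.51-fold higher. CFD, the factor D protease that cleaves factor B in the alternative pathway, was at 0.157 and 0.578 FPKM and is the member listed for HMPOS alone. C4BPA, FGG, C7, C6, C3, PLAU, TFPI2, CFI, CLU and A2M have no row for HMPOS, and whether their differences differ between the lines was not tested.

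The D17 and HMPOS tables share no samples. Of the members, 7 were listed in both, which is 41.2% of the 17 in D17 and 87.5% of the 8 in HMPOS, and the 7 had the same direction. Over all genes, 614 symbols were in both tables, or 13.9% of those in D17 and 51.6% of those in HMPOS, and 535 of them had the same direction. Past 2-fold, 3 members were shared, C1R, SERPING1 and SERPINF1, out of 13 in D17 and 5 in HMPOS. The overlap past 2-fold was not counted over all genes, so it has no background here and these members are named as a description. The tables were scaled separately, so the levels of D17 and HMPOS are not compared.

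**Figure D2:**
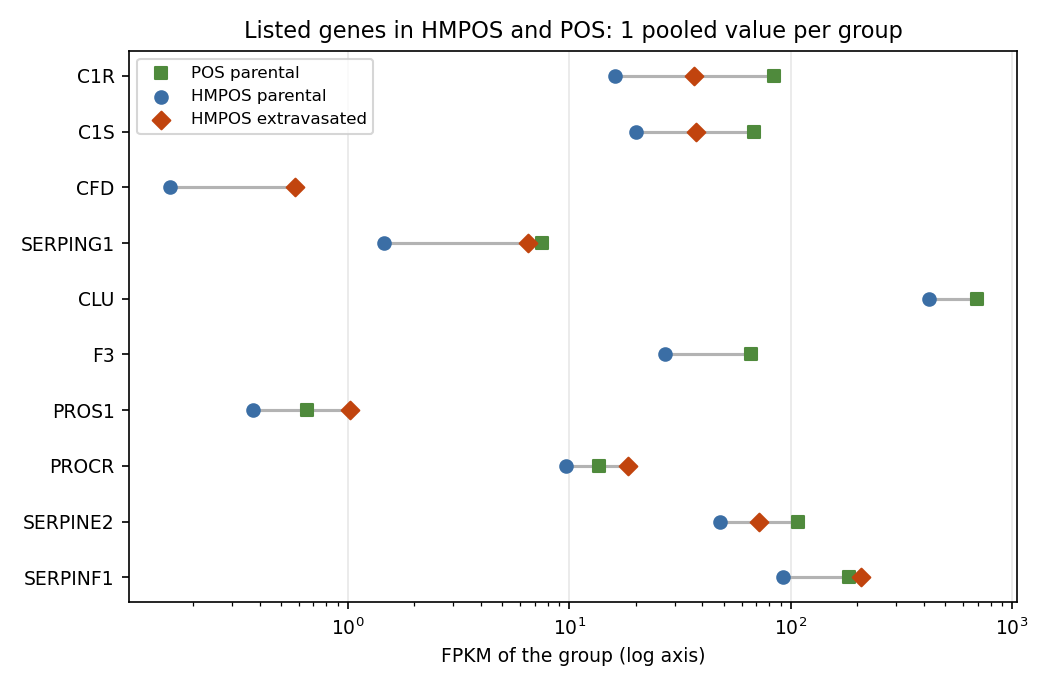
FPKM on a log axis of the listed members in parental POS (squares), parental HMPOS (circles) and extravasated HMPOS cells (diamonds), each point being 1 pooled value for 3 libraries. A missing square or diamond marks a gene with no row in that table. By the group names, parental HMPOS is the lowest of the plotted values for each gene.

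POS and HMPOS compare a line with its more metastatic subline, both parental by the group names. If the HMPOS names were exchanged, the HMPOS values in this comparison would be those of extravasated cells. The 9 members listed here were all lower in HMPOS than in POS, and 5 of them were lower past 2-fold, with 0 higher. Of the 5746 genes in this table, 52.3% were lower in HMPOS, 19.1% were lower past 2-fold and 8.49% were higher past 2-fold. The median log2 ratio of HMPOS over POS was -1.17 for the members and -0.31 for all listed genes, and relative to the latter all 9 members were still lower but 3 in place of 5 were lower past 2-fold. C1R was at 83.7 FPKM in POS and 16.0 FPKM in HMPOS, 5.23-fold lower, C1S at 68.0 and 20.1 FPKM, 3.39-fold lower, and SERPING1 at 7.57 and 1.46 FPKM, 5.18-fold lower. F3, which codes for tissue factor, the trigger of coagulation, was at 66.5 FPKM in POS and 27.2 FPKM in HMPOS, 2.44-fold lower, and is listed in this comparison alone. SERPINE2 was at 108 and 47.9 FPKM, 2.25-fold lower, and SERPINF1 at 183 and 92.3 FPKM lay just under 2-fold with a ratio of 1.98. CLU was at 694 and 423 FPKM, the highest level in both groups. PROS1 at 0.658 and 0.375 FPKM and PROCR at 13.6 and 9.66 FPKM were 1.75-fold and 1.41-fold lower.

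The 7 members listed in all 3 tables were C1R, C1S, SERPING1, PROS1, PROCR, SERPINE2 and SERPINF1. The HMPOS table and the table against POS share the parental HMPOS libraries, so a low value of that group would enter both differences, and the levels are given side by side without a test. For C1R, C1S, SERPING1 and SERPINE2 the extravasated HMPOS value lay between those of parental HMPOS and POS, as for SERPING1 at 1.46, 6.50 and 7.57 FPKM in parental HMPOS, extravasated HMPOS and POS. For the other 3, PROCR, PROS1 and SERPINF1, extravasated HMPOS was above both, as for SERPINF1 at 207 FPKM beside 183 FPKM in POS. With the HMPOS names exchanged, extravasated HMPOS would instead be the lowest for all 7, and parental HMPOS would lie between or above. C1R over C1S was 0.799 in parental HMPOS, 0.981 in extravasated HMPOS and 1.23 in POS. C1R was thus below C1S in parental HMPOS, slightly below it in extravasated HMPOS and above it in POS. Extravasated HMPOS and POS come from tables scaled separately, although the parental HMPOS values in them were nearly equal.

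**Figure D3:**
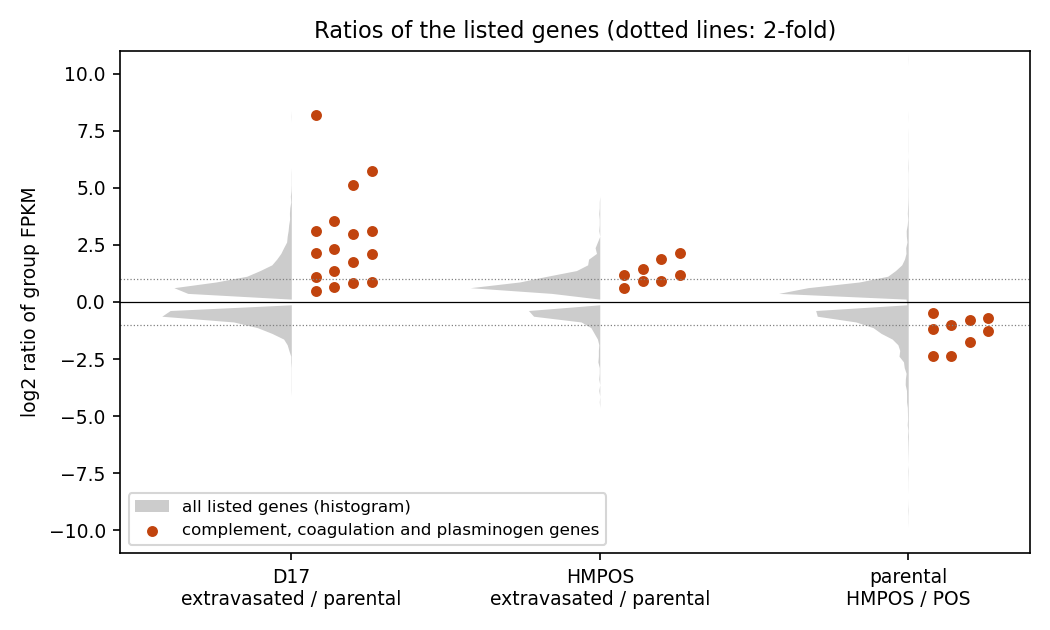
Log2 ratios of the listed members (points, spread sideways for legibility) beside a histogram of all listed genes (grey, scaled to its own maximum) in each comparison. The points lie above 0 in D17 and HMPOS and below 0 in HMPOS against POS, and C4BPA is the point at 8.18 in D17.

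Genes within 500 kb of the 3 members that led the choice were looked up in the tables' own coordinates. In D17, 0 other listed genes lay near C4BPA, 0 near FGG and 4 near C7. Those near C7 were C6, CARD6, PRKAA1 and TTC33. CARD6 was at 7.88 FPKM in parental and 10.3 FPKM in extravasated D17 cells, TTC33 at 5.29 and 8.16 FPKM, and PRKAA1, lower in extravasated cells, at 21.7 and 15.5 FPKM. The neighbours of C7 other than C6 thus had ratios under 2-fold and in both directions. In HMPOS, CD34, 467 kb from C4BPA, was at 2.17 FPKM in parental and 8.23 FPKM in extravasated cells, and CARD6 near C7 at 1.00 and 0.584 FPKM. Against POS, DYRK3 near C4BPA and CARD6 and TTC33 near C7 were lower in HMPOS and PRKAA1 was higher, and 0 listed genes lay near FGG in either of these comparisons.

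A further 70 genes of the same pathways outside the set were looked up. The D17 table held 12 of them, with 10 above and 2 below the parental level after extravasation. Their log2 ratios had a median of 1.10, and 6 were higher and 1 was lower past 2-fold. Over all genes listed in D17, 54.2% were higher, with a median of 0.39. TGM2, a transglutaminase that crosslinks matrix proteins and fibrin, was at 0.577 FPKM in parental and 17.5 FPKM in extravasated D17 cells, 30.3-fold higher. GAS6, a protein S relative and ligand of the TAM receptor kinases, was at 0.503 and 3.78 FPKM. SERPINI1, the neuroserpin gene, was at 20.0 and 63.2 FPKM, ANXA5, which codes for the phosphatidylserine-binding annexin A5, at 27.4 and 80.5 FPKM, and C1RL was 2.93-fold higher. F9 was below 1 FPKM in both groups. The genes that were lower, named after their values were seen, were C1QBP, a C1q-binding protein of mitochondria and the cell surface, at 167 and 109 FPKM, and C5AR2, a C5a receptor, at 0.502 and 0.118 FPKM.

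In HMPOS, 6 of the 70 genes were listed, 5 higher and 1 lower, with a median log2 ratio of 0.67, close to the 0.58 of all listed genes, of which 67.0% were higher. Past 2-fold, 1 was higher and 1 was lower. C1RL was at 1.63 FPKM in parental and 4.15 FPKM in extravasated HMPOS cells, 2.55-fold higher. SERPINI1 was the lower gene, at 58.7 and 22.6 FPKM, the opposite direction from D17, and the difference between the lines was not tested. Against POS, 14 of the 70 were listed, 4 higher and 10 lower in HMPOS, with a median log2 ratio of -0.76. Over all genes listed against POS, 52.3% were lower, with a median of -0.31. THBS1, the thrombospondin gene, was at 53.7 FPKM in POS and 5.01 FPKM in HMPOS, 10.7-fold lower, GAS6 at 181 and 42.8 FPKM, 4.23-fold lower, and S100A10, part of a plasminogen receptor with annexin A2, at 1126 and 395 FPKM, 2.85-fold lower. C1RL, LRP1 and MASP2 were 2.31-fold, 2.09-fold and 2.09-fold lower. Past 2-fold, 2 were higher and 6 were lower. SERPINI1 was at 2.16 FPKM in POS and 58.7 FPKM in HMPOS, 27.2-fold higher. The other higher genes were C5AR1, C1QBP and LMAN1, at 4.01-fold, 1.79-fold and 1.58-fold, with C5AR1 below 1 FPKM in both groups.

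**Figure D4:**
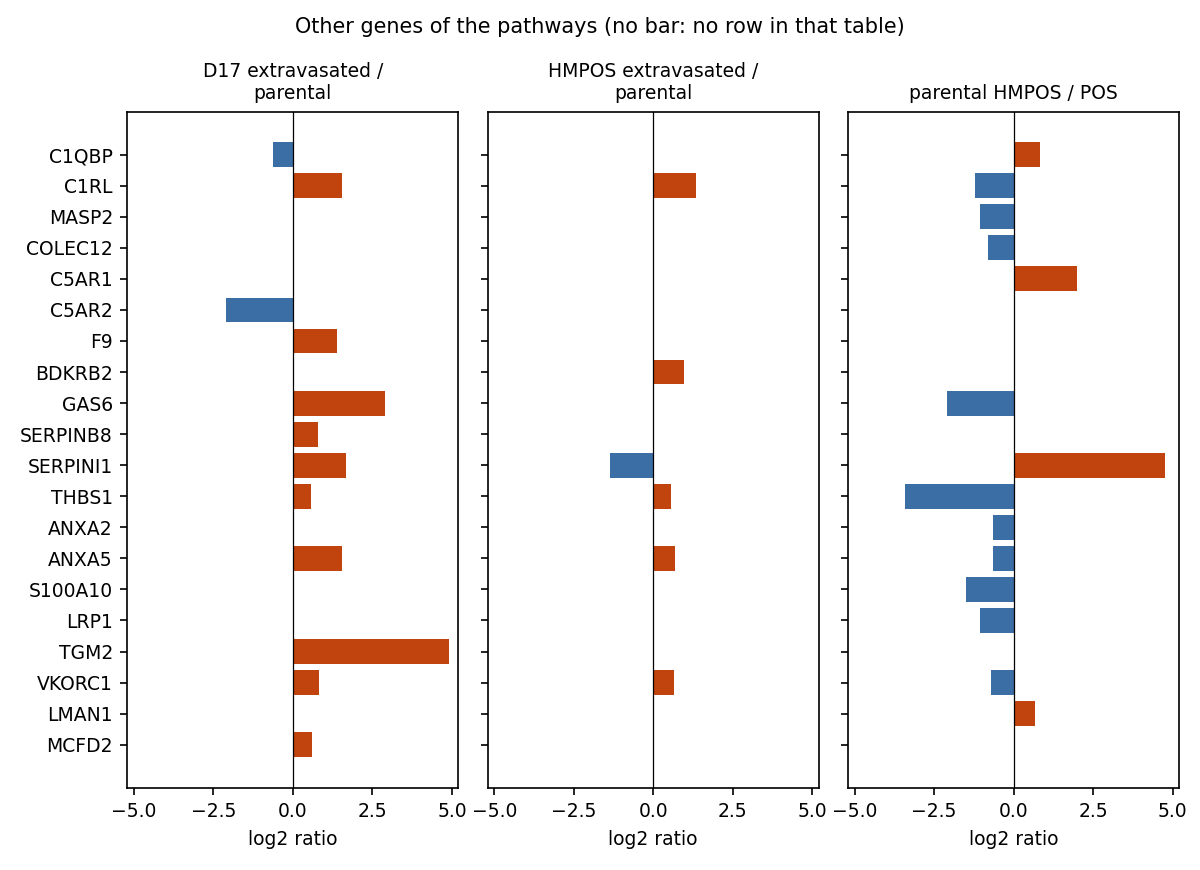
Log2 ratios of the further pathway genes with a row in at least 1 table, as horizontal bars from 0, for D17, HMPOS and parental HMPOS against POS. Most bars point right in the extravasation comparisons and left against POS, with C1QBP and C5AR2 pointing the other way in D17, SERPINI1 in HMPOS, and SERPINI1, C5AR1, C1QBP and LMAN1 against POS.

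Since plasma forms of these proteins come largely from liver, and since endothelial cells, leukocytes and platelets make some of them, markers of those cells were looked up in the same tables. Of 14 hepatocyte markers, 1 was listed in D17, RBP4, at 20.3 FPKM in parental and 80.5 FPKM in extravasated cells. RBP4 was also the listed marker against POS, at 29.9 FPKM in POS and 8.36 FPKM in HMPOS, 0 were listed in HMPOS, and ALB, APOA1, TTR, AHSG and HNF4A have no row in any table. None of 9 endothelial markers was listed in D17 or HMPOS, PECAM1 and CDH5 included. CD34, which endothelial and blood progenitor cells express, was not among these markers but was listed in HMPOS, at 2.17 FPKM in parental and 8.23 FPKM in extravasated cells. Against POS, EGFL7 and KDR were listed, at 24.4 and 1.73 FPKM in POS and 10.1 and 0.146 FPKM in HMPOS. None of 9 leukocyte markers, PTPRC among them, was listed in any comparison. Of 7 platelet and megakaryocyte markers, TUBB1 was listed in D17 at 3.13 and 5.35 FPKM and ITGA2B in HMPOS at 2.28 and 3.74 FPKM, in parental and extravasated cells. A marker without a row gives no level, so these counts do not show that such cells were absent, and their part in the differences was not tested.

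Markers of the osteoblast lineage, that of the tumour itself, were looked up in the same way. In D17, 5 of 11 were listed and 5 were higher in extravasated cells. The median log2 ratio of the 5 was 1.46, beside 0.39 for all listed genes, of which 54.2% were higher. The 5 summed to 909 FPKM in parental and 2216 FPKM in extravasated cells. COL1A2, a type I collagen chain gene, was the most abundant at 493 and 1360 FPKM. SPARC was at 187 and 433 FPKM and SPP1 at 3.71 and 25.2 FPKM. In HMPOS, 6 of 11 were listed, 5 higher and 1 lower, with 1 in each direction past 2-fold, at a median log2 ratio of 0.73 beside 0.58 for all listed genes, of which 67.0% were higher. They summed to 1923 FPKM in parental and 3125 FPKM in extravasated cells, with SPARC most abundant. The lower gene was IBSP, the bone sialoprotein gene, at 2.05 FPKM in parental and 0.427 FPKM in extravasated HMPOS cells. Against POS, 6 were listed, 1 higher and 5 lower in HMPOS, at a median log2 ratio of -1.985. Over all genes listed against POS, 52.3% were lower, with a median of -0.31. BGLAP, the osteocalcin gene, was at 676 FPKM in POS and 27.3 FPKM in HMPOS, while SPP1, COL1A1 and SPARC were 7.95-fold, 2.81-fold and 2.50-fold lower. The higher gene was SP7, at 41.7 FPKM in POS and 54.5 FPKM in HMPOS. RUNX2 and DMP1, which mark early and late stages of the lineage, have no row. The part of these differences in the results for the members was not tested.

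Many complement genes respond to interferons and to interleukin 6, so genes of these responses were looked up beside them. The D17 table held 20 of 25 interferon-induced genes, and all 20 were higher in extravasated cells by the doubted group names, at a median log2 ratio of 1.68. By ratio the leading genes were OASL, ISG20, IFIT1, IFIT2, ISG15, RSAD2, GBP5, IFI44L, MX2 and DDX58, among which ISG15 was at 115 FPKM in parental and 528 FPKM in extravasated cells. In HMPOS, 6 of the 25 were listed and were higher, with a median log2 ratio of 1.37, as for ISG15 at 3.20 and 12.5 FPKM, with IFI35, MX1 and OAS2 also past 2-fold. Against POS, 17 of the 25 were listed, in 18 rows since OASL has 2, and were lower in HMPOS, with a median log2 ratio of -5.91, as for MX1 at 714 FPKM in POS and 0.911 FPKM in HMPOS. After MX1 the largest of these differences were those of MX2, IFI44L, ISG15, IFIT2, IFI44, RSAD2, OAS2, BST2 and IFI35. Over all listed genes, 54.2% were higher in D17 and 67.0% in HMPOS, and 52.3% were lower against POS. The medians of all listed genes were 0.39, 0.58 and -0.31. In each comparison the listed interferon-induced genes had the direction of the listed members. An exchange of names would turn round the members and these genes together, so their shared direction does not bear on the names. Most listed genes of the osteoblast-lineage list and of the acute-phase list below also had that direction in each comparison.

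Of 19 acute-phase and interleukin 6 pathway genes, 8 were listed in D17. Of these, 7 were above and 1 below the parental level after extravasation, at a median log2 ratio of 0.99. Over all genes listed in D17, 54.2% were higher, with a median of 0.39. IL1R1, the interleukin 1 receptor gene, was at 1.81 and 7.41 FPKM, LIF, a cytokine of the interleukin 6 family, at 6.78 and 16.6 FPKM, and CEBPB, a transcription factor of the acute-phase response, at 8.62 and 18.5 FPKM. IL6 itself was below 1 FPKM in both groups, and LIFR was the lower gene. In HMPOS, 2 of the 19 were listed, IL1R1 and SAA1, the serum amyloid A gene, and each was higher in extravasated cells. SAA1 was at 3.78 FPKM in parental and 21.7 FPKM in extravasated cells. IL1R1 was at 4.88 and 7.89 FPKM, 1.62-fold higher. Of all genes listed in HMPOS, 67.0% were higher, with a median of 0.58. Against POS, 7 were listed, 1 higher and 6 lower in HMPOS, at a median log2 ratio of -0.59. Over all genes listed against POS, 52.3% were lower, with a median of -0.31. IL1R1 was at 62.4 FPKM in POS and 4.88 FPKM in HMPOS, and SAA1 at 8.47 and 3.78 FPKM. The part of either response in the differences of the members was not tested.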

How the data were processed

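The authors deposited 3 tables in the format of the Cuffdiff program, each with the FPKM of 2 groups, and each group value pools 3 libraries. The submitters' processing notes name Trimmomatic 0.38, TopHat2, Cufflinks, Cuffdiff and CanFam3.1, while the article describes STAR, voom and limma, and the kits named also differ. The sample records name RNeasy and NEBNext Ultra Directional kits, and the article names miRNeasy and TruSeq Stranded kits. How reads shared by related genes were counted is not given in the sources used here. Log2 ratios were computed here from the FPKM, with no pseudocount unless stated. The tables also hold the authors' log2 ratios, test statistics, p-values and q-values, which were not used. Columns of individual samples that went unused numbered 0. Depth could not be read from pooled values.

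Members and lists were chosen with earlier results of these data known. Genes were matched by symbol. Every member with a row was to be named. Members past 2-fold with a higher value of at least 1 FPKM, members in all 3 tables and C4BPA, C7 and FGG were to be given with both values, and genes of other lists past 2-fold with at least 1 FPKM were to be named, up to 10 per list and comparison. RefSeq (UU_Cfam_GSD_1.0) served for neighbour order and matched 39 of the 42 symbols. Counting was tested on simulated data. Alternatives were other folds, a filter at 1 FPKM, pseudocounts of 0.1 and 1 FPKM, centring, exchanged group names and, chosen after seeing the data, the set without C4BPA, FGG and C7 and the filter on the counts of listed members. Promoter motifs were not analysed here. The result for 1 gene of the further pathway list is not reported here, and the counts of that list leave it out. Python 3.11.15, numpy 2.4.6, pandas 2.3.3 and matplotlib 3.10.9 were used.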

Additional observations from a re-analysis of the deposited data

How the results depend on the processing

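No paired analysis was possible because each group has 1 pooled FPKM and its libraries cannot be separated, and leaving out a replicate was not run for the same reason. With no spread between libraries, values are compared by size alone, and low values such as the parental level of C4BPA are the least certain.

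The count of members higher past 2-fold in D17 was 10 to 17 under other folds, filters, pseudocounts and centring, against 13. In HMPOS this count, 5 as reported, was 8 at any fold, 8 at 1.5-fold, 1 at 4-fold, 3 with a pseudocount of 1 FPKM and 2 after centring on the median of all listed genes. In HMPOS against POS, the 5 members lower past 2-fold became 9 at any fold, 8 at 1.5-fold, 2 at 4-fold and 3 after centring. With exchanged group names, the members higher past 2-fold would be 0 and those lower would be 13 in D17, and 0 and 5 in HMPOS.

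The median log2 ratio of the members in D17, 2.15 as reported, was 2.24 with a filter at 1 FPKM, 2.08 and 1.61 with pseudocounts of 0.1 and 1 FPKM, 1.76 after centring and, chosen after seeing the data, 1.91 without C4BPA, FGG and C7. In HMPOS it was 1.16 with the filter, 0.87 with a pseudocount of 1 FPKM and 0.59 after centring, against 1.18. Against POS it was -1.23 with the filter, -1.15 with a pseudocount of 1 FPKM and -0.86 after centring, against -1.17. The counts of listed members became 16, 7 and 8 with the filter, whose use for these counts alone was chosen after seeing the data. For C4BPA, FGG and C7 in D17, log2 ratios were 5.89, 5.32 and 4.71 with a pseudocount of 0.1 FPKM and 7.80, 5.34 and 4.72 after centring. These shifts follow from the construction of each alternative.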
